A study of Mus musculus with 12 samples.

Results

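CpG methylation was compared between B cells that had divided 8 or more times and carried CD138 (Div8pos) and B cells of the same division class without it (Div8neg). Each fraction was sorted from the same 2 host mice, numbered 196 and 197, so the comparison uses 4 of the 12 libraries of the study. The other 8 come from undivided cells (Div0) and from cells after 1, 3 and 5 divisions (Div1, Div3, Div5) of these hosts. The transferred cells were B220+ CD43- splenic B cells, taken from naive C57/BL6J mice according to the study's design text, while the sample labels give the strain B6.SJL-Ptprca Pepcb/BoyJ, female, 8 weeks old. They were labelled with CFSE or CTV, dyes that are diluted at each division, and placed in uMT mice, which lack mature B cells of their own. The hosts received LPS, a bacterial ligand that activates B cells through Toll-like receptor signalling, and the spleen was sorted on day 3. All 6 fractions share the transfer, the host strain and the LPS. The division class has no upper limit, so within these data CD138 and a larger number of divisions cannot be told apart. The level of a CpG is the percent of its reads that were methylated, and differences are in percentage points, always Div8pos minus Div8neg.

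CD138 is syndecan 1, a heparan sulphate proteoglycan that appears on the surface of plasmablasts and plasma cells, the antibody-secreting descendants of B cells. Their formation is driven by the transcription factors IRF4, BLIMP-1 (encoded by Prdm1) and XBP1, while PAX5 and BACH2 maintain the B cell program. Methylation of CpGs is copied to the new strand after replication by DNMT1 and can be lost either because copying fails or because TET enzymes oxidise the methyl group.

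Reduced representation bisulfite sequencing, which reads the CpGs near MspI and TaqI cutting sites, gave at least 10 reads in all 12 libraries at 760348 CpGs of mm9. The median coverage of a CpG was 22 and 41 reads in Div8neg of hosts 196 and 197, and 30 and 55 reads in Div8pos. The libraries of host 197 were thus the deeper ones and weighed more in tests on reads. The only label check the data allow is the gene of the sorting marker. Sdc1, which encodes CD138, had 20 covered CpGs between 116 and 1644 bp after its start site, with mean levels of 2.09% and 1.89% in Div8neg and 1.83% and 1.74% in Div8pos. Div0 had 1.40% and 1.77% there, so the start of Sdc1 was near 0 in undivided cells as well as in both division 8 fractions. Its methylation therefore did not separate the sorted fractions and does not check their labels.

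The stretch upstream of Irf4 and that of Gzma are shown first, because the fractions were alike at the former and differed at the latter. They are the 250 bases before the RefSeq start site, in build GRCm38.p6, with the CpGs covered in the table in capitals. Covered CpGs were matched to the letters by their spacing, since the table itself is in mm9. At Irf4, on the plus strand of chr13:30748983-30749232, all 10 covered CpGs fell on a CG at a single shift of 25 bp. At Gzma, on the minus strand of chr13:113100982-113101231, 1 of the 3 covered CpGs lies in the printed bases and the other 2 follow the start site.
Irf4: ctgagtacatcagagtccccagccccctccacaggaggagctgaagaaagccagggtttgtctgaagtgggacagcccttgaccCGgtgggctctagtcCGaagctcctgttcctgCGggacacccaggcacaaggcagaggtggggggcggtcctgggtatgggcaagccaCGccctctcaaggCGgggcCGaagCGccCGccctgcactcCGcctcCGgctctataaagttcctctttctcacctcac
Gzma: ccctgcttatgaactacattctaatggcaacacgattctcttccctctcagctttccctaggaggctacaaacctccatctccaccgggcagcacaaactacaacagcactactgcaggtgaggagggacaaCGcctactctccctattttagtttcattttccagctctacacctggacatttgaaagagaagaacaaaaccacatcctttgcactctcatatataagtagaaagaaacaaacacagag

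Over the 10 CpGs marked in the Irf4 sequence the mean level was 4.34% and 1.63% in Div8neg and 1.75% and 1.06% in Div8pos, in hosts 196 and 197. None of the 10 was called. The CpG marked in the Gzma sequence was methylated in 5 of 30 reads (16.7%, 95% Wilson interval 7.34 to 33.6%) and 8 of 26 reads (30.8%, 16.5 to 49.99%) in Div8neg. In Div8pos it was methylated in 0 of 30 reads, which allows a level of up to 10% by a limit of 3 counts and 11.4% by the Wilson interval, and in 2 of 47 reads (4.26%, 1.17 to 14.2%). These bounds cover counting error only. It was lower in Div8pos by 21.6 points (quasi-binomial test across all CpGs, Benjamini-Hochberg adjusted p = 0.0461).

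CD138-positive cells carried less methylation across the genome. The mean over all CpGs was 53.2% ± 0.0442 in Div8neg and 49.9% ± 0.422 in Div8pos (SD, n = 2). The difference was -2.99 points in host 196 and -3.52 points in host 197, and both Div8pos libraries lay below both Div8neg libraries. An exact two-sided permutation test gives p = 0.333 here, the smallest value that 2 libraries against 2 allow. At the 397380 CpGs with at least 80% in Div0, the level was 90.5% and 90.1% in Div8neg and 85.7% and 85.1% in Div8pos. At the 229921 CpGs with at most 5% in Div0, it was 2.22% and 2.65% in Div8neg and 2.26% and 1.78% in Div8pos. The hosts therefore differed in direction at unmethylated CpGs, while both showed a lower level at methylated ones. The 59 CpGs of mitochondrial DNA, which is largely unmethylated, had 2.83% and 2.63% of methylated reads in Div8neg and 3.36% and 1.61% in Div8pos. The Div8pos library of host 196 was thus the highest of the 4 there and that of host 197 the lowest; the part of incomplete conversion in the differences at CpGs of low level was not tested.

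The size of the difference depended on where a CpG started and on how crowded it was. By Div0 level, it ran from 0.039 and -0.863 points (hosts 196 and 197) at 0 to 5% to -6.65 and -6.91 points at 60 to 80%, and was -4.08 and -4.30 points above 95%. Among CpGs with at least 80% in Div0, those with no other covered CpG within 50 bp differed by -6.24 and -6.63 points, those with 1 by -4.93 and -5.15, and those with 2 by -3.84 and -3.89. With 3 the differences were -3.03 and -3.13 points, with 4 to 5 they were -2.40 and -2.39, and with 6 or more they were -1.77 and -1.68. The order was the same in both hosts, and neighbouring steps were further apart than the hosts were. Within promoters, exons, introns and intergenic sequence alike, CpGs with no covered neighbour differed more than those with 3 or more. In introns, for example, isolated CpGs differed by -6.44 and -6.71 points, and crowded ones by -2.94 and -2.86. Covered neighbours undercount the CpGs present, since uncovered ones are not in the table.

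**Figure D1:**
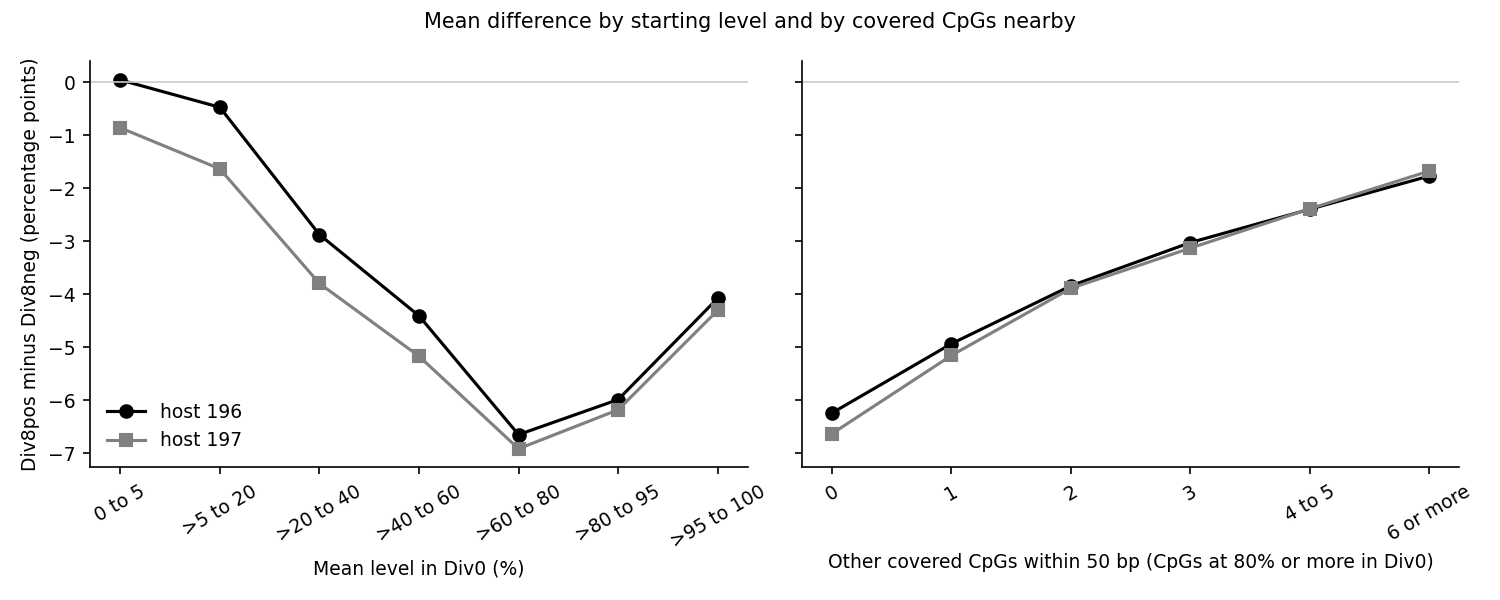
Mean difference of Div8pos minus Div8neg in percentage points (y axis) by the level in Div0 (left) and by the number of other covered CpGs within 50 bp for CpGs at 80% or more in Div0 (right), with 1 line per host. The difference runs from -6.24 and -6.63 points at isolated CpGs to -1.77 and -1.68 points at CpGs with 6 or more neighbours.

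Differences between positions and chromosomes were smaller. Among CpGs with at least 80% in Div0, the mean difference in hosts 196 and 197 was -5.29 and -5.22 points in promoters (2500 bp upstream to 500 bp downstream of a start site), -5.21 and -5.29 in introns, -4.66 and -5.06 between genes and -3.97 and -3.98 in exons. The averages of the 19 autosomes lay between -5.43 points (chromosome 11) and -4.58 points (chromosome 8), and the X chromosome had -3.59 points. CpGs that had already lost methylation earlier differed most. Where Div5 was at least 20 points below Div0 the difference was -12.3 and -12.7 points, and where Div5 was above Div0 it was -4.33 and -4.51 points. Div0 and Div5 are separate libraries from the 4 that are compared.

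Single CpGs were called lower or higher at an adjusted p under 0.05 and a difference of at least 20 points. Of the 760348 CpGs, 4833 (0.636%) were lower in Div8pos and 53 (0.00697%) were higher. The lower CpGs had a median difference of -29.5 points, and 4828 of them were lower in both hosts, 3462 by at least 20 points in each. For comparison, 36.6% of all CpGs were lower in both hosts. The lower CpGs were chosen on the reads of both hosts, which largely fixes their counts. When every CpG kept its own estimate of dispersion no CpG passed, although 38002 had an unadjusted p under 0.05, and edgeR called 986 lower and 2 higher CpGs. Without the Div8neg library of host 197 the counts were 832 lower and 11 higher, without the Div8pos library of that host 1127 lower and 50 higher, and without the Div8neg library of host 196 they were 2359 lower and 52 higher.

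The lower CpGs fell into groups by their earlier course. At 2946 of them (60.96%) Div0 was at 80% or more and Div5 within 10 points of it. Their median level was 94.4% in Div0, 92.2% in Div5, 90.2% in Div8neg and 60.05% in Div8pos. Another 652 had already lost at least 10 points by Div5, with medians of 91.6% in Div0, 74.5% in Div5, 65.3% in Div8neg and 27.7% in Div8pos. Of the lower CpGs with at least 80% in Div0, 18.0% were at least 10 points lower in Div5, against 4.37% of all such CpGs. The 1000 CpGs that began between 20 and 80% went from 63.6% in Div0 and 54.9% in Div5 to 53.8% in Div8neg and 19.8% in Div8pos. Since these CpGs were chosen for a low Div8pos against Div8neg, the last 2 levels of each group are a description. The share that was lower was 1.30% in promoters, 1.14% in introns, 0.797% between genes and 0.605% in exons, among CpGs at 80% or more in Div0. Near a start site (250 bp before to 50 bp after), 41 of 69575 CpGs were lower, against 4579 of 506619 CpGs over 1 kb from any start site. Among CpGs with at least 20% in Div0, which could fall by the size limit, the shares were 0.815% and 0.997%.

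To see whether a loss in 1 host was found in the other, CpGs were chosen from 1 host's reads by Fisher's exact test, with the same 2 limits, and read in the other. The 323 CpGs chosen in host 196 (0.0425% of all) differed by a median of -36.4 points in host 197, where 318 of them were lower. The share that was lower there was 98.5%, against 63.8% of all CpGs. The 2306 chosen in host 197 (0.303% of all) differed by a median of -20.5 points in host 196. There 2110 were lower, or 91.5% against 52.7% of all CpGs. Restricted to CpGs with at least 80% in Div0, the 1602 chosen in host 197 were lower in host 196 in 92.6% of cases, against 65.3% of all such CpGs.

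A small group of CpGs was higher in Div8neg than in undivided cells. At 217 lower CpGs (4.49% of the lower ones) Div0 was at 20% or less, so that only a higher level in Div8neg than in Div0 could give the call. Their median was 6.88% in Div0, 8.82% in Div5, 28.3% in Div8neg and 3.36% in Div8pos. Choosing and reading in different hosts gave the same direction of Div8pos against Div8neg. The limit of 20% in Div0 used the mean of both hosts. The low Div0 of the host that was read is therefore part of the choice. The 178 such CpGs chosen in host 197 had medians in host 196 of 6.16% in Div0, 7.14% in Div5, 17.8% in Div8neg and 4.35% in Div8pos. Of these, 160 were lower in Div8pos of host 196, or 89.9% against 33.3% of all CpGs that began at 20% or less. All 9 chosen in host 196 were lower in host 197. Cells of another type among the Div8neg cells, or a subset of the B cells, were not tested as sources of these reads.

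Runs of lower CpGs were joined into regions, with at least 3 called CpGs and gaps of at most 500 bp. There were 209 lower regions and no higher one, and they held 793 CpGs, or 16.4% of the lower CpGs. Their median length was 150 bp, so the CpGs of a region often lie on the same reads and are not separate measurements. The median level was 88.8% in Div0, 81.8% in Div5, 67.8% in Div8neg and 24.9% in Div8pos. Div5 was within 10 points of Div0 in 152 regions (72.7%), against 91.2% of the CpGs with at least 20% in Div0, and 43 regions had at most 10% left in Div8pos. By position, 118 regions (56.5%) were over 10 kb from the nearest start site, against 68.4% of the CpGs with at least 20% in Div0. Another 13 (6.22%) were within 1 kb, against 5.91% of those CpGs, and 16 held a promoter CpG. Region levels are means over several CpGs, while the shares beside them are of single CpGs, which vary more. The regions also include 9 with at most 20% in Div0, which the CpGs beside them leave out. Without the Div8neg library of host 197 there were 63 lower regions, without the Div8pos library of host 197 there were 58 lower and 9 higher, and without the Div8neg library of host 196 there were 126 lower and 4 higher regions.

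The 8 regions with the most lower CpGs show different histories. The region of chr10:44120496-44120755, between Atg5, an autophagy gene, and Prdm1, lies 41013 bp from the nearest start site, and all 6 covered CpGs were lower. It stayed at 94.4% in Div0 and 91.7% in Div5, stood at 57.2% and 56.3% in Div8neg and at 5.03% and 3.55% in Div8pos. Methylation there was thus nearly absent in CD138-positive cells and intermediate in their CD138-negative counterparts. A region with 6 CpGs in the promoter of Ube2v1, a ubiquitin-conjugating enzyme variant (chr2:167458992-167459179), had 76.7% and 79.4% in Div8neg against 12.4% and 16.1% in Div8pos. An exonic region of Fam49b (chr15:63762167-63762298) had 77.9% and 69.7% against 11.8% and 13.8%. In Div0 they had 93.8% and 90.7%, and in Div5 90.1% and 89.9%.

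At Trf, the transferrin gene, an intronic region (chr9:103115172-103115354) with 11 lower CpGs, the largest number, had 79.1% and 81.0% in Div8neg and 50.0% and 53.7% in Div8pos. Csrnp1 (chr9:119882619-119882921) had 68.7% and 77.1% against 49.2% and 49.1%, over 14 covered CpGs of which 9 were lower. A region with no gene symbol (chr15:72928591-72928721) had 93.0% and 93.5% in Div8neg, the same as its 93.0% in Div0 to within the spread of hosts, and 48.0% and 39.0% in Div8pos. Div5 was below Div0 in all of the 8 regions except Trf (87.7% in Div0 and 92.8% in Div5), and most so in the last pair. Crybb1, a lens crystallin gene (chr5:112698365-112698804), went from 76.4% in Div0 to 68.2% in Div5, then 60.01% and 53.5% in Div8neg and 11.1% and 9.89% in Div8pos. St3gal2, which encodes a sialyltransferase (chr8:113475081-113475324), went from 79.5% to 60.7%, then 51.4% and 48.2%, and 14.9% and 12.6%. In all 8 regions the Div8neg and Div8pos libraries did not overlap, which the choice of regions fixes.

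**Figure D2:**
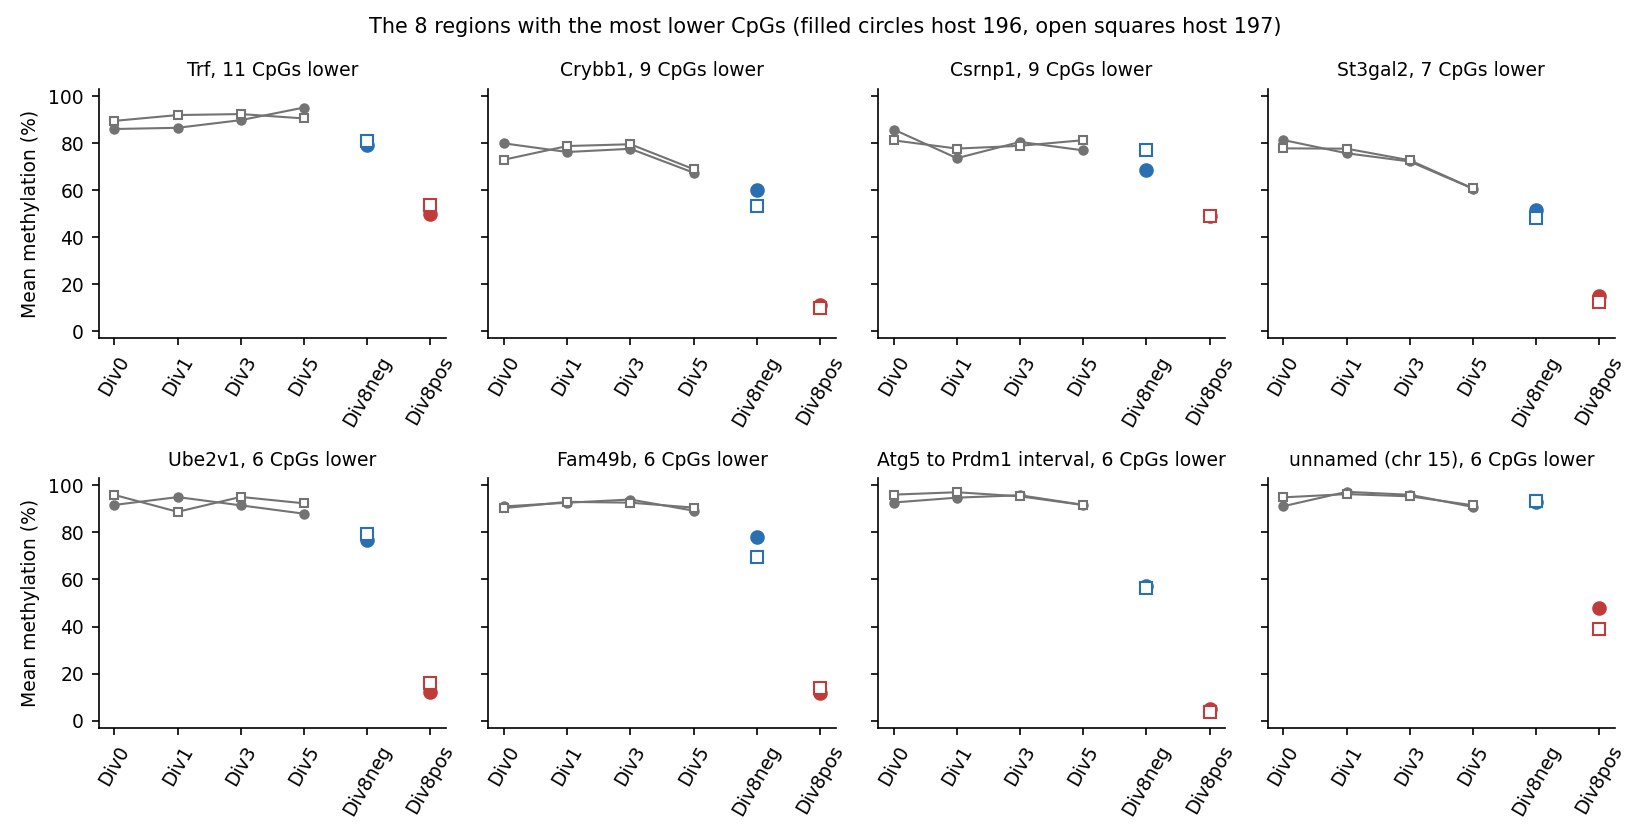
Mean methylation in percent (y axis) of the covered CpGs in the 8 regions with the most lower CpGs, in the 6 fractions of each host (grey line Div0 to Div5, blue Div8neg, red Div8pos). The interval between Atg5 and Prdm1 goes from 57.2% and 56.3% in Div8neg to 5.03% and 3.55% in Div8pos.

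Genes were compared by the mean level of their CpGs within 50 kb of a start site, for 16504 genes with at least 5 such CpGs. With limma, 345 genes (2.09%) were lower in Div8pos and 1 (0.00606%) was higher, at an adjusted p under 0.05 and at least 10 points. The median difference over all genes was -2.75 points, so a gene's loss is read against that general shift. At an adjusted p under 0.05 without the size limit, 8953 genes were lower. The 2 Div8pos libraries lay below the 2 Div8neg libraries in all 345 lower genes, which the choice of these genes largely fixes. They did so in 76.7% of all genes. Lower genes had a median of 8 covered CpGs against 26 over all genes, and 161 of the 345 held a CpG that was lower on its own. Within 5 kb of a start site 205 of 13226 genes were lower, of which 97 were among the 345, so which genes pass depends on the distance allowed. The 1 higher gene was Olfr1184, an olfactory receptor, at 75.8% and 86.0% in Div8neg and 92.9% and 89.6% in Div8pos. Its adjusted p (limma) was 0.0158, and 0.0797 when the 4 libraries were fitted alone.

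No gene lost more than Apobec1, which encodes the cytidine deaminase that edits apolipoprotein B RNA. Its 5 covered CpGs (chr6:122541189-122541517, within the gene, 10944 to 11272 bp after the start site) averaged 93.6% and 90.4% in Div0, 85.8% and 89.8% in Div5, 70.9% and 76.0% in Div8neg and 22.2% and 20.9% in Div8pos. All 5 were lower on their own, and the mean differed by -51.9 points (SE 1.90, limma adjusted p = 8.8e-06). C1qbp, a mitochondrial matrix protein gene, had 78.1% and 71.9% in Div8neg and 37.6% and 45.4% in Div8pos. Myadm had 69.1% and 67.4% against 35.9% and 38.9%. Atp2b3, a calcium pump gene on the X chromosome, had 96.6% and 92.7% against 65.5% and 65.2%. In each of these 4 genes both Div8pos libraries were below both Div8neg libraries, which the choice of genes fixes.

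Genes of the secretory pathway stood among the largest. Man1b1, which encodes a mannosidase that trims glycoproteins in the endoplasmic reticulum, had 58.8% and 59.2% in Div8neg and 29.0% and 35.0% in Div8pos. Spcs2, a subunit of the signal peptidase complex, had 63.4% and 53.4% against 37.2% and 38.4%, with the Div8neg hosts far apart. Calr4, a calreticulin gene, had 77.2% and 67.7% against 45.1% and 47.7%. The list of secretory and unfolded protein response genes as a whole did not follow them. Of its 54 measured genes Man1b1 and Spcs2 were lower (3.70%, against 2.09% of all genes). The list's median of -2.39 points was smaller in size than the -2.75 points of all genes.

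The others with differences among the 15 largest ranged from -24.2 to -19.2 points. Ndufb10, a subunit of respiratory complex I, had lost methylation in both division 8 fractions, from 73.1% in Div0 and 64.5% in Div5 to 31.4% and 27.1% in Div8neg and 8.73% and 9.73% in Div8pos. Susd3 went the same way, from 46.7% and 34.3% to 27.8% and 27.7%, then 8.16% and 6.53%. Rasgrp1, an activator of Ras in lymphocytes, had 71.0% and 66.3% in Div8neg and 49.8% and 49.1% in Div8pos. Gpnmb had 87.3% and 85.3% against 67.2% and 62.1%, with 10 of 22 CpGs lower. Pdxdc1, Crybb1, 2010109I03Rik and Gm1604b made up the rest. Gm1604b is uncertain, since its 9 CpGs were spread over chr17:7322096-8221194 and may belong to more than 1 copy.

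**Figure D3:**
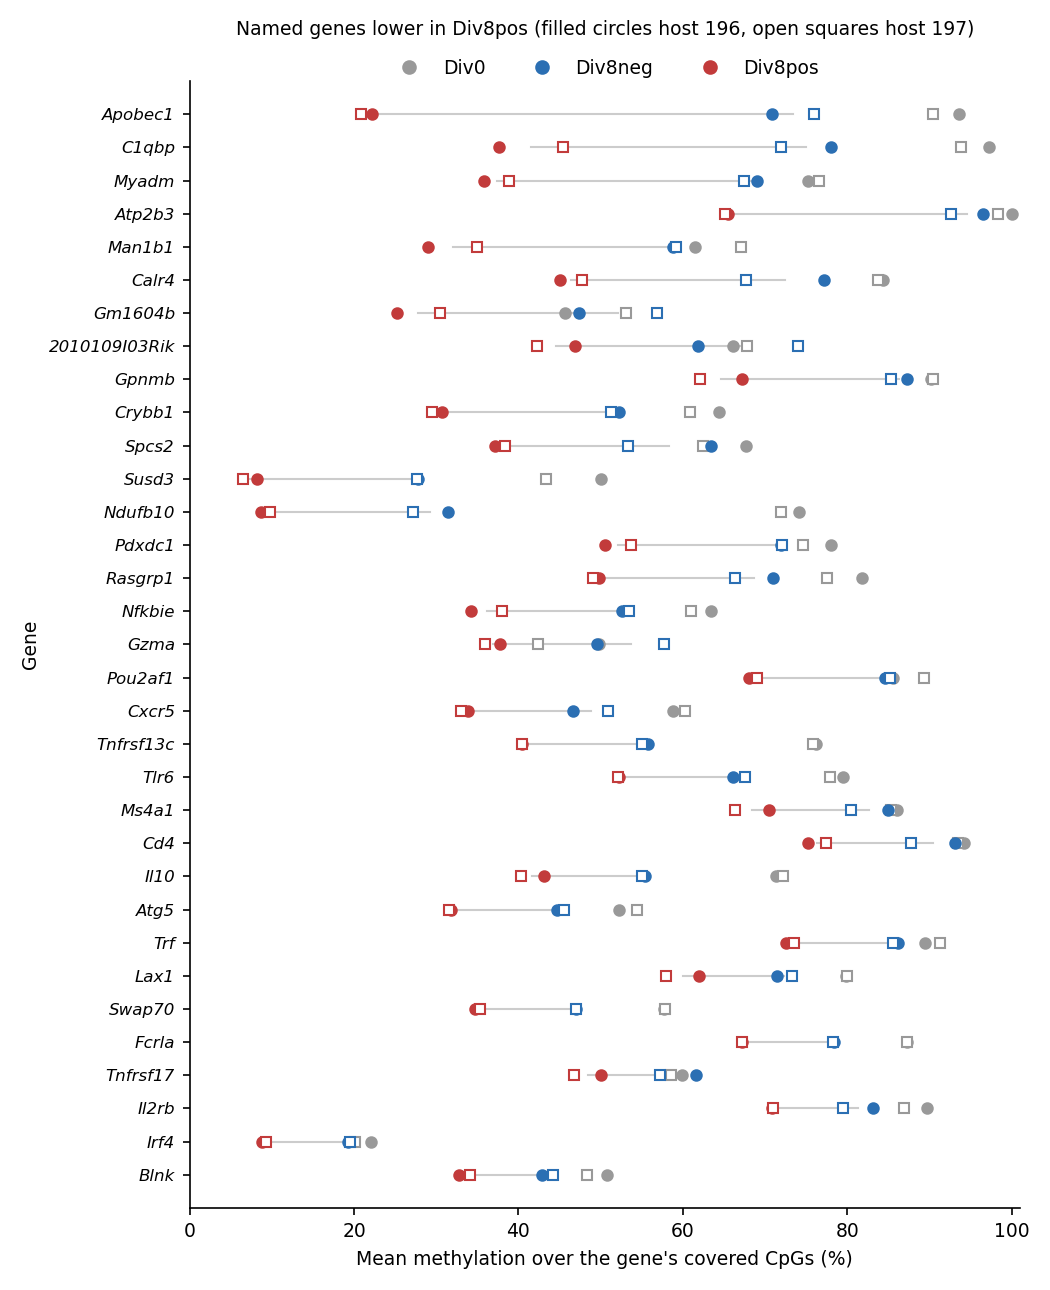
Mean methylation in percent (x axis) over the covered CpGs of the named genes that were lower in Div8pos, 1 row per gene, in Div0 (grey), Div8neg (blue) and Div8pos (red) of both hosts. Apobec1 has the widest gap, from 70.9% and 76.0% to 22.2% and 20.9%.

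Among transcription factors of plasma cell formation, Irf4 was lower as a whole and the others were not called. Irf4 averaged 19.3% and 19.5% in Div8neg and 8.82% and 9.27% in Div8pos, a difference of -10.4 points (SE 0.97, limma adjusted p = 0.000236). The CpGs that were called lie upstream of the bases printed above. At 4 CpGs between -2411 and -2264 bp (chr13:30838716-30838863) the level was 91.8% in Div0 and 88.5% in Div5, then 74.3% and 67.4% in Div8neg and 38.4% and 42.9% in Div8pos. At 2 CpGs between -1380 and -1368 bp it went from 39.8% and 32.1% to 17.6% and 24.9%, then 1.47% and 0.877%. The 7 CpGs from 1617 bp after the start onwards had 2.42% in Div0, 9.57% and 16.2% in Div8neg and 4.11% and 4.198% in Div8pos. Of the 23 CpGs 3 were lower on their own, all upstream. These groups of CpGs were formed by position after their values had been seen, as were those of the genes below.

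Prdm1 averaged 56.8% and 57.2% in Div8neg and 48.5% and 46.8% in Div8pos. The difference of -9.34 points (SE 0.843, limma adjusted p = 0.000214) missed the size limit, which it passed without the Div8pos library of host 196 (-10.2 points, limma adjusted p = 0.00096). In the full comparison 6 of its 74 CpGs within 50 kb were lower. Xbp1 had 28.5% and 28.4% against 26.2% and 25.0%, a difference of -2.87 points. Sdc1 itself differed by -2.10 points, less than the median gene, and none of its 43 CpGs was called. In the 10 CpGs of its body, 2086 to 14209 bp after the start, the levels were 89.5% and 89.0% in Div8neg and 82.9% and 84.4% in Div8pos. Pax5 differed by -0.48 points (limma adjusted p = 0.577), with 15.7% and 15.99% in Div8neg and 15.7% and 15.0% in Div8pos. Bach2 had 42.2% and 42.4% against 39.4% and 39.2%, a difference of -2.99 points.

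Other genes linked to plasma cells that were lower were Il10, Lax1 and Tnfrsf17. Il10 encodes an anti-inflammatory cytokine and averaged 55.4% and 55.0% in Div8neg and 43.1% and 40.3% in Div8pos (difference -13.6 points, limma adjusted p = 0.000285). A group of 5 CpGs between -16295 and -16268 bp held 4 of its 5 lower CpGs, with 90.6% in Div0, 83.8% in Div5, 63.9% and 64.9% in Div8neg and 36.9% and 34.1% in Div8pos. A group of 4 CpGs between -9109 and -9071 bp had a different course. It had 42.0% in Div0 and 4.70% in Div5, and stood at 12.9% and 17.8% in Div8neg and 1.47% and 0.766% in Div8pos; none of these 4 was called. The 5 CpGs farthest upstream, between -38248 and -38115 bp, stayed at 94.2% and 96.5% in Div8neg and 96.3% and 93.0% in Div8pos. The difference at Il10 was therefore carried by some of its CpGs and not by others. Tnfrsf17, which encodes the survival receptor BCMA, had 61.6% and 57.2% against 50.0% and 46.8%. Lax1, a lymphocyte adaptor gene, had 71.5% and 73.3% against 62.0% and 57.9%. Within 5 kb of a start site Il10, Lax1 and Tnfrsf17 differed by -6.59, -3.75 and -8.02 points and were not called. Tnfrsf17 was also not called without the Div8neg library of host 196 (-8.75 points) or the Div8pos library of host 197 (-9.35 points). In all, 4 of 32 measured genes of the plasma cell list were lower (12.5%, against 2.09% of all genes), and the list's median was -4.95 points, against -2.75 points over all genes. Within 5 kb of a start site the median of the list was -1.99 points, against -1.17 points over all genes. There 1 of 27 genes was lower, against 1.55% of all genes.

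B cell identity genes were also among the lower ones. Of 30 measured genes 6 were lower and none higher, or 20% against 2.09% of all genes, with a list median of -4.79 points. Within 5 kb of a start site 4 of 25 were lower, against 1.55% of all genes. The list's median there was -1.81 points against -1.17 points for all genes. Pou2af1, a coactivator of immunoglobulin transcription, had 84.6% and 85.2% in Div8neg and 68.0% and 69.0% in Div8pos. Ms4a1, which encodes CD20, had 84.9% and 80.5% against 70.5% and 66.4%. Tnfrsf13c, the BAFF receptor gene, had 55.7% and 55.1% against 40.4% and 40.5%. Blnk, Swap70 and Fcrla were the others, at -10.1, -11.997 and -11.1 points. Swap70 differed by only -1.19 points within 5 kb of a start site and was not called there. Blnk was not called without the Div8neg library of host 197 (-9.50 points) or the Div8pos library of host 196 (-9.41 points).

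**Figure D4:**
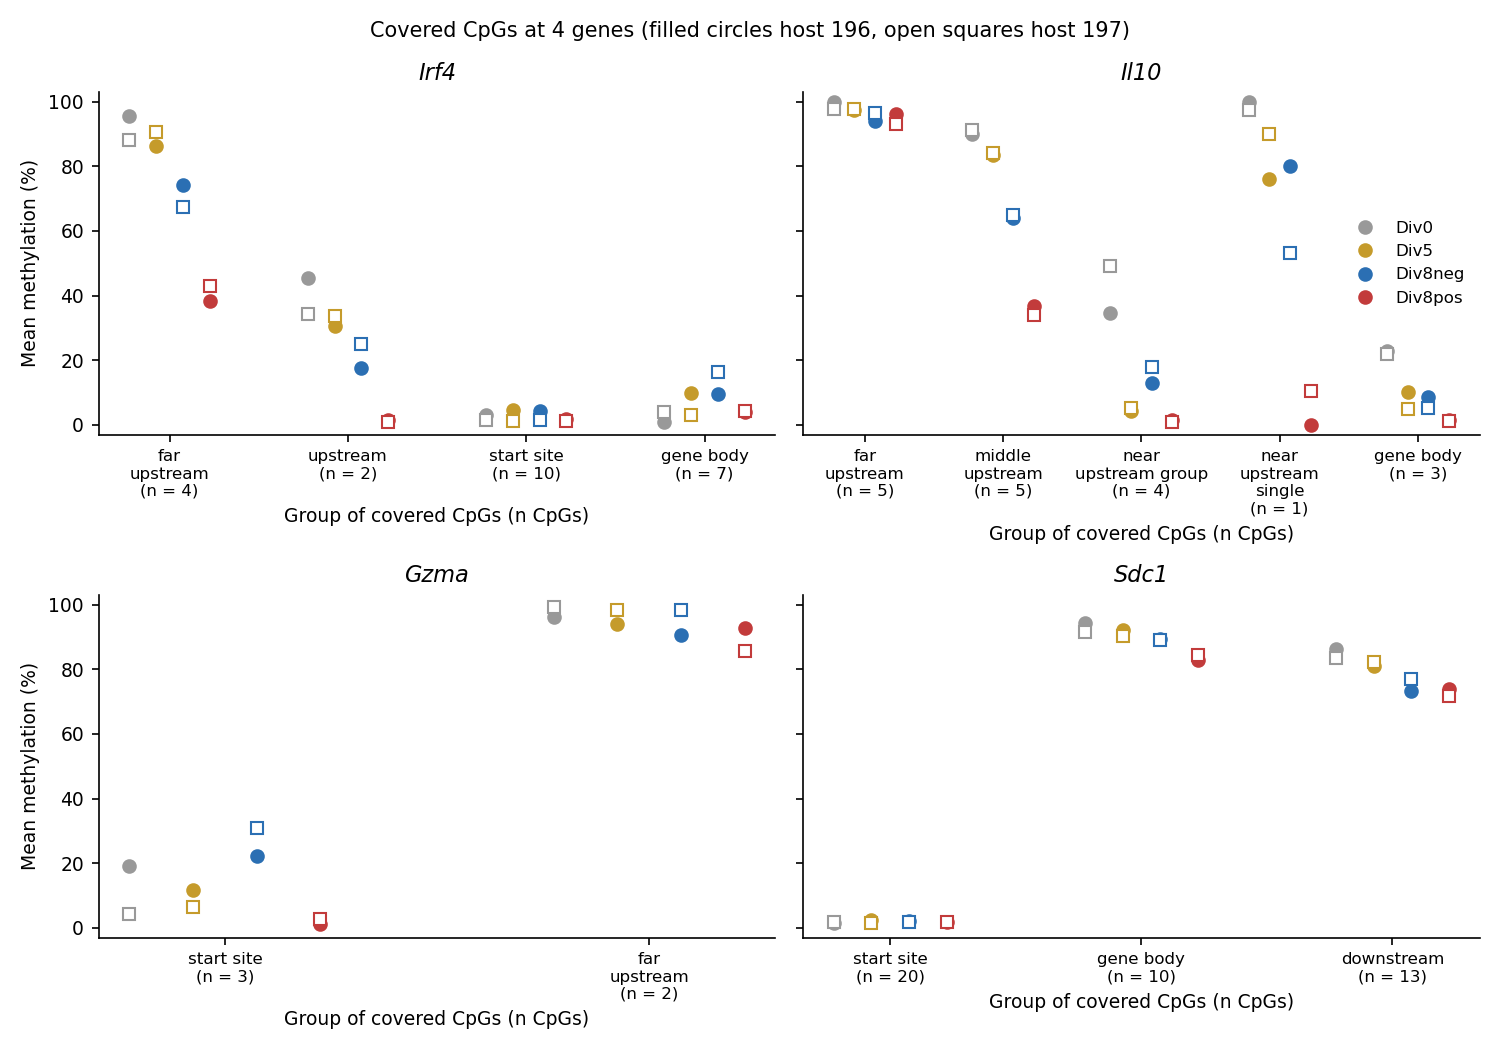
Mean methylation in percent (y axis) of groups of covered CpGs at Irf4, Il10, Gzma and Sdc1 (x axis, with the number of CpGs in each) in Div0, Div5, Div8neg and Div8pos of both hosts. The start site of Sdc1 is near 0 in every fraction shown, that of Gzma has 22.2% and 30.8% in Div8neg and 1.08% and 2.87% in Div8pos, and the far upstream group of Irf4 has 38.4% and 42.9% in Div8pos.

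In receptors and signalling, Cxcr5, the receptor that guides B cells into follicles, had 46.7% and 50.9% in Div8neg and 33.9% and 33.0% in Div8pos. It was the 1 lower gene of 18 in the homing list (5.56%, against 2.09% of all genes), whose median was -4.15 points. Nfkbie, an inhibitor of NF-kB, had 52.6% and 53.5% against 34.3% and 38.0%, and Tlr6, a Toll-like receptor, had 66.1% and 67.6% against 52.3% and 52.1%. They were the 2 lower genes of 34 in the Toll-like receptor and NF-kB list, or 5.88%, with a median of -2.66 points beside the -2.75 points of all genes. No gene of the 35 in the cell cycle list was lower, against 2.09% of all genes, and the median there was -1.81 points. In the list of DNA methylation genes Apobec1 was the only lower member of 25 (4%), and the median was -2.60 points. Apobec1 edits RNA and stands in that list as a member of the deaminase family. The lists differ in the level they started from, since the median gene of the cell cycle list had 24.7% in Div8neg and that of the plasma cell list 51.5%.

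Markers of other cell types were read the same way. Of the T cell genes 1 of 17 was lower, Cd4, at 93.1% and 87.8% in Div8neg and 75.3% and 77.4% in Div8pos, and the median was -4.47 points. Of the NK cell genes 2 of 8 were lower, Il2rb and Gzma, with a median of -5.06 points, while all genes had 2.09% lower and a median of -2.75 points. Within 5 kb of a start site none of the 3 NK cell genes measured was lower, against 1.55% of all genes. Il2rb and Gzma were not among these 3, since they had fewer than 5 covered CpGs there. The median of the 3 was -0.14 points, against -1.17 points over all genes, and does not bear on the 2 called genes. Il2rb was not called without the Div8neg library of host 196 (-8.56 points). None of 15 myeloid and none of 7 erythroid genes was lower, with medians of -3.19 and -3.16 points. At the 3 CpGs around the start of Gzma, which encodes granzyme A of cytotoxic cells, Div0 had 11.7%, Div5 9.05%, Div8neg 22.2% and 30.8% and Div8pos 1.08% and 2.87%. Methylation levels do not tell which cells carried the reads, and whether other cells took part in these differences was not tested.

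**Figure D5:**
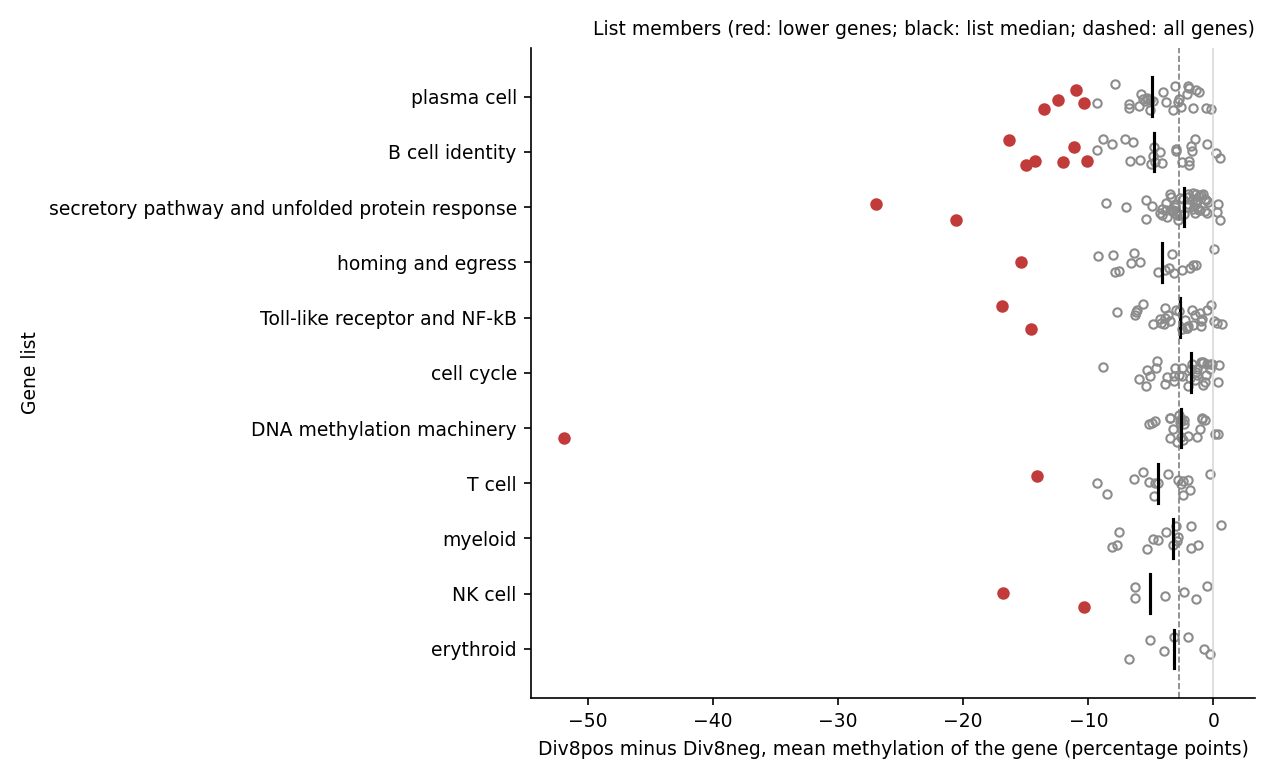
Difference of Div8pos minus Div8neg in the mean methylation of each measured gene (x axis, percentage points) for the 11 gene lists (y axis), with lower genes in red and each list's median as a black bar. The median of all genes is -2.75 points (dashed), and the list medians run from -5.06 points (NK cell) and -4.95 points (plasma cell) to -1.81 points (cell cycle).

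By the number of lower CpGs, regardless of the gene mean, Atg5, Crybb1 and Prdm1 had 13 each, out of 51, 40 and 90 covered CpGs. Trf had 12 of 39, and Arfip1 and Foxp1 had 12 of 279 and 12 of 273. The count of Arfip1 is uncertain, since its CpGs within 50 kb of a start site spread over chr3:84313540-85731730. They may not all belong to 1 gene. Atg5 was also lower as a gene, from 44.8% and 45.6% in Div8neg to 31.9% and 31.6% in Div8pos, but within 5 kb of a start site it differed by -0.52 points, so its lower CpGs lie away from start sites. Foxp1, a transcription factor of B cell development, differed by -5.85 points over its 239 CpGs within 50 kb and did not pass the size limit. The genes with many lower CpGs were thus in part those with many covered CpGs.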

How the data were processed

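Reduced representation bisulfite libraries of the 12 samples were made from 20 ng of DNA with 10 to 15 PCR cycles and read as 50 bp single ends, per the labels' protocols. The submitters' processing notes name Bismark, Bowtie2 and the build mm9, with versions not given in the sources used here. Counts of methylated and unmethylated reads per CpG were deposited by the authors, in a table of CpGs with at least 10 reads in all samples. Its deposited methylation fraction equalled methylated over all reads to within 5.6e-16. Symbols, classes and distances (to the nearest start site of any gene) are those of the deposited table. It names the nearest transcript's symbol, which 65092 CpGs lacked. PCR reads carry no molecular identifiers, so a read count understates the error.

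CpGs were tested in a quasi-binomial logistic model over the 12 samples (numpy 2.4.6), with a dispersion moderated by limma 3.58.1, which gave 1.16 for all CpGs, and genes with limma (R 4.3.3) on mean percent methylation. Calls used the limits given with the results, and edgeR 4.0.16 was an alternative. Both tests were also run on simulated data. The simulated CpGs all had the same setting of spread between libraries, so that run cannot show whether a shared dispersion holds. Samples with a shared host number are from 1 animal, per the labels. Host deviations in Div8pos and Div8neg correlated at 0.018 over 21314 CpGs, and the host block was run as an alternative. Named genes are the 15 lower and 10 higher with the largest difference among those called in the same direction in both hosts, the called members of the 11 lists, Sdc1, Prdm1, Irf4, Xbp1, Pax5 and Bach2, and the 5 genes with the most lower CpGs (6 with ties); named regions are the 8 lower and 5 higher with the most called CpGs. The members, lists, tests and limits were chosen with earlier results of these data known, and 1 gene of a list is not reported here. Upstream sequences are from RefSeq (GRCm38.p6).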

Additional observations from a re-analysis of the deposited data

How the results depend on the processing

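The lower mean level in Div8pos kept its direction under each alternative tried. It was -2.68 points by summed reads, -2.71 points at CpGs with at least 20 reads in the 4 libraries, and -3.52 and -2.99 points with 1 host each. The number of lower CpGs depended strongly on the setting: 3009 with at least 20 reads (423988 CpGs), 986 with edgeR, 0 with each CpG's own dispersion, and 832 to 4009 with 1 library left out. Higher CpGs numbered 35, 2 and 0 in the first of these settings, 99 with a limit of 10 points, and 11 to 52 with 1 library left out. All 986 CpGs of edgeR were among the 4833. Lower regions numbered 43 with at least 5 CpGs, 135 with at least 20 reads and 58 to 154 with 1 library left out, when 0 to 9 higher regions appeared. Lower genes numbered 205 within 5 kb, 137 with at least 10 CpGs, 202 with at least 20 reads, 3183 with a limit of 5 points and 397 to 505 with 1 library left out. Of the 202 genes, 92 were among the 345. Higher genes numbered 0 within 5 kb, with at least 10 CpGs and with the 4 libraries alone, 5 with a limit of 5 points and 1 to 6 with 1 library left out. The cause of these changes was not tested, except that fewer CpGs, genes or libraries entered several of them.

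With the hosts as a replicate block, 5883 CpGs were lower and 79 higher, 228 regions and 344 genes were lower and 1 gene was higher, and the block changed no call of a named gene. Within 5 kb of a start site 29 named genes were measured, and some of these were not called in the main comparison. There 6 lost their call (Tnfrsf17, Il10, Lax1, Swap70, Atg5 and Trf). Leaving out 1 library ended the call of Olfr1184, Tnfrsf17, Blnk and Il2rb in at least 1 of the 4 fits, and Prdm1 passed in 1 of them. In these fits the remaining library of a fraction is assumed to vary like the other fractions. The isolated CpGs with at least 80% in Div0 differed by -6.10 points with at least 20 reads, and by -6.46 points with a window of 100 bp, an alternative chosen after the data had been seen. Depth limits single CpGs: at 10 to 20 reads a difference of 20 points is a few reads.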

Other observations

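Of the 209 lower regions, 9 had at most 20% methylation in Div0, and 4 of them follow. These 4 had the largest mean differences of the 9 and were singled out after their values had been seen. At Ttc7b (chr12:101586614-101586818, intron) all 6 covered CpGs were lower. Div0 had 10.1%, Div5 20.8%, Div8neg 37.0% and 37.5%, and Div8pos 5.56% and 7.93%. Beyond Gimap3, a GTPase gene of lymphocytes (chr6:48726021-48726171, 4 CpGs), Div0 had 8.87%, Div8neg 38.1% and 30.2%, and Div8pos 7.35% and 7.26%. Near Bcas1 (chr2:170102862-170103068) Div0 had 8.01%, Div8neg 42.5% and 31.03%, and Div8pos 5.77% and 6.24%. At Ret, a receptor tyrosine kinase gene (chr6:118129351-118129435, exon, 4 CpGs), the hosts were far apart in Div8neg, at 18.1% and 46.1%, while Div8pos had 1.00% and 6.25%. In each of these 4 regions Div8pos was within a few points of Div0 or below it, and Div8neg was above both. The choice of regions low in Div0 and lower in Div8pos largely fixes that Div8neg was above both.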
